A study of Pardosa pseudoannulata with 6 samples.

Results

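The genes described here encode the carriers and enzymes with which cells of the wolf spider Pardosa pseudoannulata take up sugars and break them down. A gene was included if it carried the Pfam sugar transporter domain PF00083 or if its KEGG orthology name contained that of an enzyme of glycolysis, a lactate dehydrogenase or an enzyme of the citrate cycle. It also had to reach 0.5 FPKM (fragments per kilobase of gene length, scaled to library depth) in at least 3 of 6 libraries and could not have a best protein hit from Drosophila. Of 75542 assembled genes, 193 matched by domain or name. Of these, 66 had a Drosophila best hit and 8 others were below the FPKM limit, which left 119 genes, 81 found by the domain and 38 by an enzyme name. The FPKM limit was passed in all 6 libraries by 105 of the 119, in the 3 control libraries only by 3 (Cluster-8110.4772, Cluster-8110.11413 and Cluster-11142.0) and in the 3 knockdown libraries only by 1 (Cluster-8110.3863). The limit fixed the direction of these 4 carriers, which are included in the counts that follow. Just inside it lay a vesicular amine transporter (Cluster-11142.0) at 0.60, 0.51 and 0.88 FPKM in the control libraries, and just outside a beta-alanine transporter (Cluster-8110.54775) at 0.70, 0.92 and 0.46 FPKM.

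The 6 libraries were RNA sequencing samples of material labelled as an individual, with no organ, age or sex used here. Every sample, controls included, combined cadmium treatment with injected double-stranded RNA, the trigger of RNA interference. The injected RNA was a negative control in 3 libraries (dsNC) and targeted F-actin in the other 3 (dsFactin). The comparison therefore asks which of these transcripts differ after the actin-directed RNA in spiders that were all exposed to cadmium, and no cadmium-free group was analysed here. Whether replicates are separate animals is not said in the labels, and p-values therefore reflect only how much these samples differ, which may be technical. If an individual is a whole animal, values average over all organs, and fewer cells of a type cannot be told apart from less RNA per cell.

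Spiders, like insects, carry sugar in their body fluid as glucose and trehalose, a disaccharide of glucose. Facilitative carriers of the SLC2 family and the related trehalose transporters move these sugars across membranes down their gradients. Hexokinase traps glucose as glucose 6-phosphate, phosphofructokinase commits it to glycolysis, and the later steps yield ATP and pyruvate. In mitochondria the citrate cycle oxidises acetyl groups made from pyruvate and passes electrons to the respiratory chain. The PF00083 domain is shared by carriers of many other solutes, so most of the carriers among the 119 genes are not sugar carriers by name.

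Depth, recovered from the spacing of low FPKM values, was 15.8 to 17.7 M fragments (M, 1e6) in dsNC and 16.2 to 17.9 M in dsFactin. Of the 4 tested genes named actin beta/gamma 1, the family of the injected RNA, 2 lay lower in all dsFactin libraries than in any dsNC library, 1 lay higher and 1 overlapped. The most abundant, an A3a-like actin (Cluster-8110.34823), was at 4443, 5949 and 5426 FPKM in dsNC against 1906, 2321 and 3221 in dsFactin (adjusted p = 0.0911, limma), and the labels do not say which actin was targeted. Fitted with limma on log2(FPKM + 1), 264 of 53182 tested genes, or 0.496%, passed at an adjusted p under 0.05, with 0.0771% higher and 0.419% lower in dsFactin. The median log2 difference (dsFactin minus dsNC) over all tested genes was -0.27, and -0.12 over the 12851 genes with a mean of at least 5 FPKM. Summed FPKM of 79 muscle marker genes (troponin, tropomyosin, myosin heavy chain, titin, twitchin and paramyosin) ranged from 8878 to 10682 in dsNC and from 4422 to 5523 in dsFactin, and 71 of the 79 had the lower mean in dsFactin. Digestive gland markers (78 genes named astacin, cathepsin or chymotrypsin) summed to 25403 ± 3113 FPKM in dsNC against 35981 ± 3146 in dsFactin (SD, n = 3), and 59 of the 78 had the higher mean in dsFactin.

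Among the 119 genes, 2 carriers rose and 1 enzyme fell in dsFactin. The 2 that rose were a GLUT1-like glucose carrier and an OCTN-like organic cation carrier, at 1.94 and 1.95 times their dsNC means, and the 1 that fell was a hexokinase, at 0.518 times its dsNC mean. The passing share of 2.52% compares with 0.496% of all tested genes and, for the 77 of the 119 with a mean of at least 5 FPKM, 3.90% compares with 1.28% (0.218% higher and 1.07% lower). An unadjusted p under 0.05 was reached by 13 genes with higher and 14 with lower values, which is 10.9% and 11.8%, beside 4.53% and 14.8% of all tested genes. At a mean of at least 5 FPKM the shares were 15.6% higher and 9.09% lower, beside 12% and 18.8%. All dsFactin libraries lay above all dsNC libraries in 19 of the 119 genes (16%) and below in 27 (22.7%), beside 5.98% and 21.5% of all tested genes. At a mean of at least 5 FPKM these shares were 22.1% above and 19.5% below, beside 15.6% and 23.5%. The 3 calls depended on single libraries. Each was lost when any single library other than dsFactin replicate 2 was left out (adjusted p = 0.0647 to 0.180) and kept without dsFactin replicate 2 (adjusted p = 0.0279 to 0.0437).

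**Figure D1:**
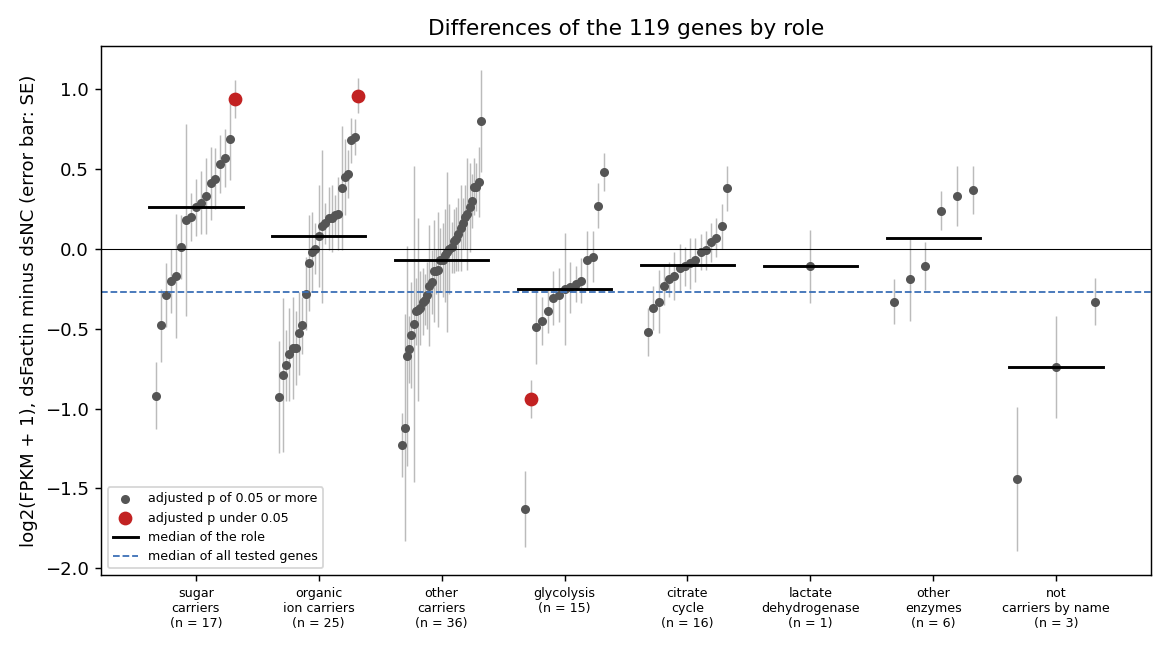
Log2 difference in FPKM (dsFactin minus dsNC, on log2(FPKM + 1), vertical axis, error bars SE) of each of the 119 genes, sorted within its role (horizontal axis). Red points are the 3 genes with an adjusted p under 0.05, black bars the median of each role and the dashed line the median of all tested genes at -0.27; the sugar carriers have a median of 0.26 and glycolysis one of -0.25.

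The 17 sugar carriers comprised 15 genes named as SLC2 or trehalose carriers and 2 sugar phosphate exchangers, and 12 of the 17 had the higher mean in dsFactin. With the 1 that rose, 4 had higher and 1 lower values at an unadjusted p under 0.05. These are 23.5% and 5.88%, beside 4.53% and 14.8% of all tested genes. After median-ratio rescaling 9 of the 17 were higher and 1 lower at that level, and 0 passed. That rescaling raised the median of all tested genes from -0.27 to -0.09, and no all-gene share is given here for it. The GLUT1-like carrier (Cluster-8110.37198), whose mammalian namesake supplies basal glucose uptake, was at 33.5, 28.4 and 32.6 FPKM in dsNC against 58.0, 62.0 and 63.6 in dsFactin. The dsFactin libraries all lay well above the dsNC libraries, with little spread in either group. It rose by 0.94 ± 0.12 on the log2 scale (SE, adjusted p = 0.0417, limma) and was the most abundant sugar carrier. Its group of 5 genes named SLC2A1 or GLUT1 did not move as one. A second member (Cluster-8110.37963) was at 5.86, 5.71 and 3.92 FPKM in dsNC against 2.55, 2.23 and 1.93 in dsFactin, so that these groups separated in the opposite direction (log2 -0.92 ± 0.21, adjusted p = 0.0999, limma), and this gene passed with voom. Another (Cluster-8110.27416) was at 1.85 ± 0.507 FPKM in dsNC against 1.03 ± 0.115 in dsFactin (SD, n = 3), again with no overlap, and a further gene (Cluster-8110.35867) at 20.5 ± 1.27 and 23.9 ± 4.11 FPKM overlapped. Summed, the 5 genes were at 60.6 ± 1.06 FPKM in dsNC against 89.7 ± 1.90 in dsFactin, and most of that sum in dsFactin came from the 1 gene that rose.

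Trehalose carriers were mostly at higher means in dsFactin, but 0 of them passed in limma or with voom. Of 6 genes with the KEGG name TRET1, the facilitated trehalose transporter first described in insects, 5 had the higher mean. At an unadjusted p under 0.05, 1 of the 6 was higher, beside 4.53% of all tested genes. Beside 5.98% of all tested genes, 2 of the 6 lay wholly higher. These 2 were Cluster-8110.13660, at 5.97, 6.26 and 5.51 FPKM in dsNC against 11.3, 7.76 and 8.19 in dsFactin (adjusted p = 0.195, limma), and Cluster-8110.39704, at 9.75, 9.29 and 11.4 FPKM in dsNC against 17.75, 12.95 and 12.02 in dsFactin (adjusted p = 0.270). Both were named here after their values were seen. In 4 of the 6 genes the highest value of all libraries was that of dsFactin replicate 1. The sum of the 6 was 45.9, 41.3 and 48.9 FPKM in dsNC against 68.1, 54.6 and 49.1 in dsFactin, so dsFactin replicate 3 was level with the highest control.

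The 3 genes with the KEGG name SLC2A8 or GLUT8, a mammalian carrier of intracellular membranes, included 2 whose best hit was also a trehalose transporter. The more abundant (Cluster-8110.33049) was at 34.4, 27.9 and 32.8 FPKM in dsNC against 60.1, 37.3 and 33.8 in dsFactin, where 1 library was far above the other two and the groups overlapped (log2 0.41 ± 0.23, adjusted p = 0.390, limma). The myo-inositol cotransporter (Cluster-8110.28583) was at 1.71 ± 0.186 and 1.72 ± 0.246 FPKM. The glucose-6-phosphate exchanger SLC37A4-like gene (Cluster-8110.41590), which in mammals moves glucose 6-phosphate into the endoplasmic reticulum, was at 17.6, 13.2 and 17.2 FPKM in dsNC against 22, 21.4 and 29.3 in dsFactin, with no overlap (log2 0.57 ± 0.18, adjusted p = 0.177). For the 17 sugar carriers the median log2 difference was 0.26, which is 0.53 above the median of all tested genes. It was 0.57 after rescaling the libraries by median ratios, when the all-gene median was -0.09, and 0.41 with quantile normalization, when that median was 0.01.

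The 25 organic ion carriers, the SLC22 group and its relatives, move charged solutes such as carnitine, choline and many foreign compounds. Here 1 rose, 4 including it had higher and 4 lower values at an unadjusted p under 0.05 (16% each, beside 4.53% and 14.8% of all tested genes), and 7 lay wholly above and 6 wholly below dsNC (28% and 24%, beside 5.98% and 21.5%). The lower shares are near those of all tested genes, and 1 of the lower genes, Cluster-8110.4772, passed the FPKM limit through dsNC only. The gene that rose (Cluster-8110.36013) has the KEGG name OCTN, which in mammals covers carriers of carnitine, the molecule that takes fatty acids into mitochondria. It was at 98.5, 93.5 and 109 FPKM in dsNC against 202, 193 and 192 in dsFactin, so the lowest dsFactin library was well above the highest control. The log2 difference was 0.96 ± 0.11 (SE, adjusted p = 0.0384, limma), and it was the most abundant carrier of the 119 genes. Each call over all genes also moved with the setting: this gene and the GLUT1-like carrier each passed in 6 of 16 alternative settings, with log2 differences from 0.88 to 1.28 and from 0.87 to 1.26.

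Further OCTN-named genes separated the same way without passing in limma as fitted, although the 2 given next passed with voom and when tested among genes averaging at least 5 FPKM, and Cluster-8110.33131 also with array weights. Cluster-8110.33131 was at 45.8, 49.5 and 53.1 FPKM in dsNC against 78.9, 81.6 and 82.4 in dsFactin (log2 0.70 ± 0.11, adjusted p = 0.0592, limma). Cluster-8110.41901 was at 7.94, 7.44 and 8.22 FPKM in dsNC against 14.4, 13.6 and 11.9 in dsFactin (log2 0.68 ± 0.14, adjusted p = 0.0854). Both groups were tight in these genes and did not overlap. Another organic cation carrier without a KEGG name (Cluster-8110.36301) was at 30.2 ± 2.22 FPKM in dsNC against 42.5 ± 6.86 in dsFactin (SD, n = 3, adjusted p = 0.172). Not all of the 12 OCTN genes shared this direction: 7 had the higher mean and 5 the lower mean. Of the 12, 5 lay wholly higher and 2 wholly lower, beside 5.98% and 21.5% of all tested genes. The sum of the 12 was 214, 216 and 229 FPKM in dsNC against 362, 342 and 346 in dsFactin. Most of that difference came from Cluster-8110.36013 (means of 100 and 195 FPKM) and Cluster-8110.33131 (49.4 and 81.0 FPKM).

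At the low end, an SLC22A13-named carrier (Cluster-8110.4772), which met the FPKM limit through dsNC only and so had to be lower in dsFactin, was at 1.25, 1.36 and 0.91 FPKM in dsNC against 0.14, 0.41 and 0.37 in dsFactin. These values rest on 19 to 26 recovered fragments per dsNC library and 3 to 8 per dsFactin library (log2 -0.73 ± 0.22, adjusted p = 0.161, limma). Over the 25 organic ion carriers the median log2 difference was 0.08 and the summed level 323 ± 12.7 FPKM in dsNC against 464 ± 24.8 in dsFactin. Most of the difference in that sum came from Cluster-8110.36013 and Cluster-8110.33131. The digestive gland markers given above were higher in dsFactin as well, and their part in the carrier values was not tested. Related carriers share sequence, and the handling of fragments that match several of them is unknown, which leaves values of single carriers uncertain.

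**Figure D2:**
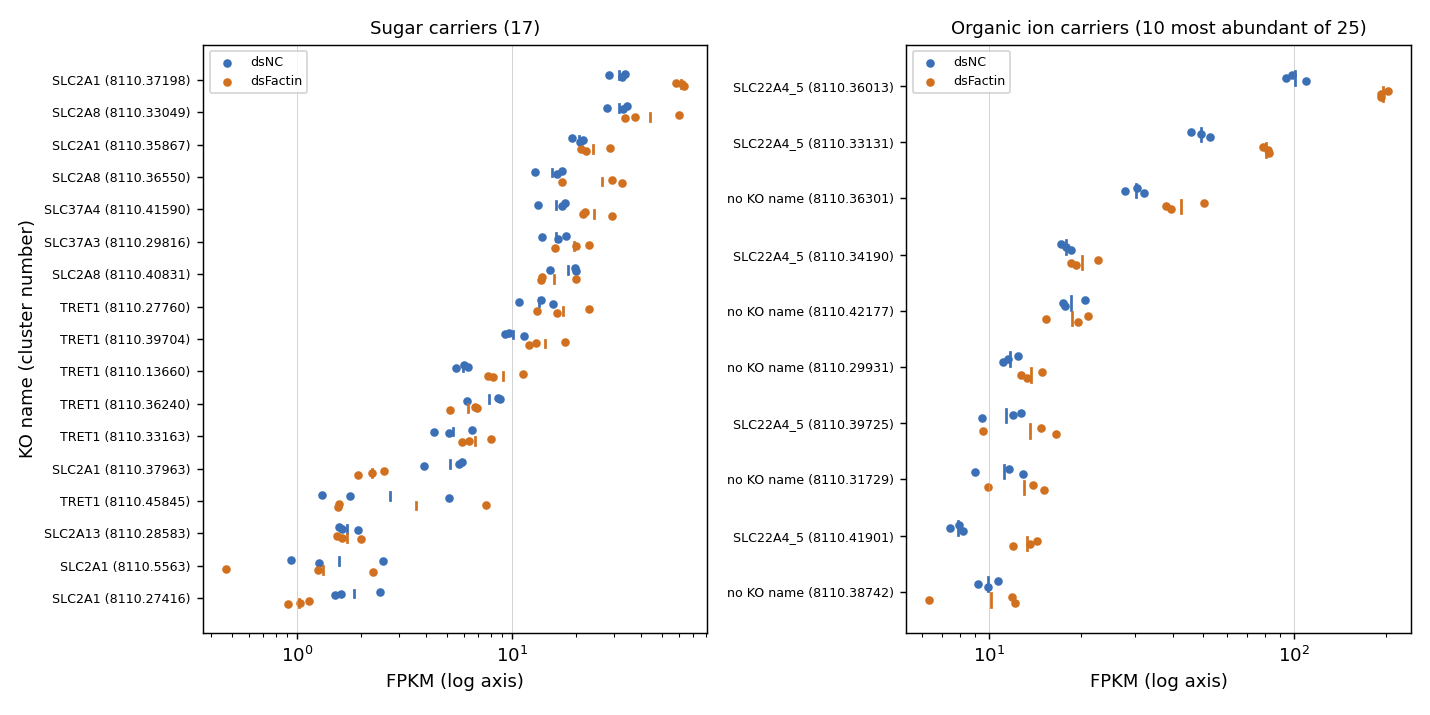
FPKM (log axis) of the 17 sugar carriers (left) and of the 10 most abundant of 25 organic ion carriers (right) in each library, blue for dsNC and orange for dsFactin, with a vertical tick at each group mean (n = 3). The GLUT1-like gene Cluster-8110.37198 and the OCTN-like gene Cluster-8110.36013 separate fully between groups, while the 3 genes named SLC2A8 overlap.

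The remaining 36 carriers included 8 SLC17 phosphate and sialic acid carriers, 7 SLC46 carriers, 5 monocarboxylate carriers, 4 vesicular amine carriers, 4 synaptic vesicle 2 proteins, 2 spinster carriers and 6 others. Of the 36, 0 passed in limma or with voom. At an unadjusted p under 0.05, 2 had higher and 2 lower values (5.56% each, beside 4.53% and 14.8% of all tested genes). Of these, 1 higher (Cluster-8110.3863) and 1 lower (Cluster-8110.11413) met the FPKM limit through the group where they are high, so that their direction was fixed by it. Their median log2 difference was -0.07. The most abundant, a sialin (Cluster-8110.33040), which exports sialic acid from lysosomes in mammals, was at 44.9 ± 4.68 FPKM in dsNC against 50.7 ± 8.97 in dsFactin. A gene whose best hit is monocarboxylate transporter 9 (Cluster-8110.11413) was at 1.21, 1.52 and 1.31 FPKM in dsNC and was listed at 0 in each of the 3 dsFactin libraries (adjusted p = 0.0627, limma). It is 469 bases long, and its dsNC values rest on 3 to 4 recovered fragments, where 3 fragments equal 0.896 to 1.13 FPKM in the dsFactin libraries, so the difference lies close to the counting limit. A synaptic vesicle glycoprotein 2C-like gene (Cluster-8110.34424), of vesicles that release transmitters, was at 2.26, 1.87 and 1.78 FPKM in dsNC against 1.05, 0.78 and 0.93 in dsFactin (log2 -0.63 ± 0.21, adjusted p = 0.185). The 4 vesicular amine carriers, 1 of which (Cluster-11142.0) met the FPKM limit through dsNC only, summed to 8.87 ± 0.379 FPKM in dsNC against 5.89 ± 1.06 in dsFactin, and the 4 synaptic vesicle 2 proteins to 9 ± 1.29 against 7.29 ± 1.25 (SD, n = 3). Another 3 genes with the domain were not carriers by name, among them a calnexin, a chaperone of the endoplasmic reticulum.

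Glycolysis was represented by 15 genes for 9 of its steps, of which 1 fell. A negative log2 difference (dsFactin minus dsNC) was found in 13 of the 15, beside 38067 of all 53182 tested genes. After median-ratio rescaling 5 of the 15 were negative, and with quantile normalization 13 were. No all-gene count of signs is given here for either setting. The gene that fell was a hexokinase-2-like gene (Cluster-8110.32912), at 82.3, 80.4 and 80.4 FPKM in dsNC against 38.4, 47.9 and 39.5 in dsFactin. The control values were nearly equal, and every dsFactin library was far below them. The log2 difference was -0.94 ± 0.12 (SE, adjusted p = 0.0471, limma), and it ran from -1.04 to -0.62 over 16 alternative settings, in 6 of which it passed. The other hexokinases had higher means in dsFactin. The most abundant (Cluster-8110.35042) was at 257, 243 and 275 FPKM in dsNC against 373, 329 and 377 in dsFactin, with no overlap (log2 0.48 ± 0.12, adjusted p = 0.111, limma, passing with voom). A further one (Cluster-8110.31698) was at 29.0 ± 0.907 and 35.4 ± 5.19 FPKM, and its groups overlapped (adjusted p = 0.354, limma). Summed over the 3 genes, hexokinase was at 368 ± 15.3 FPKM in dsNC against 437 ± 26.7 in dsFactin (SD, n = 3). The gene that fell made up 22.3%, 22.8% and 21.0% of that sum in dsNC and 8.51%, 11.8% and 8.71% in dsFactin, while the most abundant made up 69.6%, 68.9% and 71.7% and then 82.7%, 80.9% and 83.1%.

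Phosphofructokinase, the committed step, showed the lowest ratio of any step, with a summed level of 33.4 ± 7.41 FPKM in dsNC against 12.8 ± 1.93 in dsFactin, a ratio of 0.381. Most of it was Cluster-8110.39647, at 20.2, 33.7 and 23.8 FPKM in dsNC against 6.14, 9.30 and 7.30 in dsFactin. The highest dsFactin library was below the lowest control by more than the SD of either group, yet the gene stood just outside the threshold (log2 -1.63 ± 0.24, adjusted p = 0.0536, limma) and passed in 5 of 16 alternative settings. The second phosphofructokinase (Cluster-8110.35358) was at 8.14, 8.24 and 6.27 FPKM in dsNC against 6.45, 5.46 and 3.60 in dsFactin, where the groups overlapped (adjusted p = 0.309). Phosphoglucose isomerase, the step between hexokinase and phosphofructokinase, is outside the 119 genes and outside the naming rule, and was looked up after its values were seen. Its gene (Cluster-8110.35393) was at 62.1, 73.7 and 62.1 FPKM in dsNC against 41.8, 42.8 and 32.04 in dsFactin, with no overlap (log2 -0.75 ± 0.16, adjusted p = 0.0878, passing with voom).

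The steps from aldolase to pyruvate kinase were at lower means in dsFactin as deposited. Of their 10 genes, 0 passed in limma or with voom, and 2 were lower at an unadjusted p under 0.05, beside 14.8% of all tested genes. Phosphoglycerate kinase (Cluster-8110.37216), which makes the first ATP of the payoff phase, was at 93.5, 126 and 104 FPKM in dsNC against 80.2, 78.1 and 86.4 in dsFactin (log2 -0.39 ± 0.14, adjusted p = 0.213, limma). Phosphoglycerate mutase (Cluster-8110.36740), here the form that works without a bisphosphoglycerate cofactor, was at 87.2, 119 and 98.0 FPKM in dsNC against 68.0, 73.5 and 79.1 in dsFactin (adjusted p = 0.182). In these neighbouring steps the groups did not overlap, with the gap smaller than the spread among controls. The more abundant steps overlapped: glyceraldehyde 3-phosphate dehydrogenase (Cluster-8110.35702) was at 795 ± 102 and 645 ± 99.3 FPKM and enolase (Cluster-8110.33433) at 760 ± 89.8 and 644 ± 97.5 FPKM (SD, n = 3, dsNC and dsFactin). Aldolase (Cluster-8110.34760) was at 480 ± 49.5 and 418 ± 42.5 FPKM and triosephosphate isomerase (Cluster-8110.33616) at 330 ± 41.8 and 271 ± 49.0 FPKM. These 4 genes and the most abundant pyruvate kinase (Cluster-8110.34471, 162 ± 22.2 and 155 ± 30.4 FPKM) turned positive after median-ratio rescaling and stayed negative with quantile normalization. The 4 pyruvate kinase genes summed to 272 ± 28.2 FPKM in dsNC against 254 ± 35.5 in dsFactin.

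Levels of the steps differed widely within each group. On the length-scaled FPKM scale, summed over the genes of a step, dsNC ran from 795 for glyceraldehyde 3-phosphate dehydrogenase and 760 for enolase down to 108 for phosphoglycerate kinase, 102 for phosphoglycerate mutase and 33.4 for phosphofructokinase. Neighbours in this order such as glyceraldehyde 3-phosphate dehydrogenase and enolase, or phosphoglycerate kinase and mutase, were closer than 1 SD of either. The median log2 difference of the 15 genes was -0.25, which is 0.02 from the all-gene median of -0.27. All 15 averaged at least 5 FPKM, and over all tested genes at that level the median was -0.12. After median-ratio rescaling the median of the 15 was 0.04, beside -0.09 for all tested genes. With quantile normalization it was -0.26, beside 0.01. The only lactate dehydrogenase matched was a D-lactate dehydrogenase (Cluster-8110.26309), a mitochondrial enzyme that oxidises D-lactate, at 2.38 ± 0.622 FPKM in dsNC against 2.13 ± 0.409 in dsFactin.

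**Figure D3:**
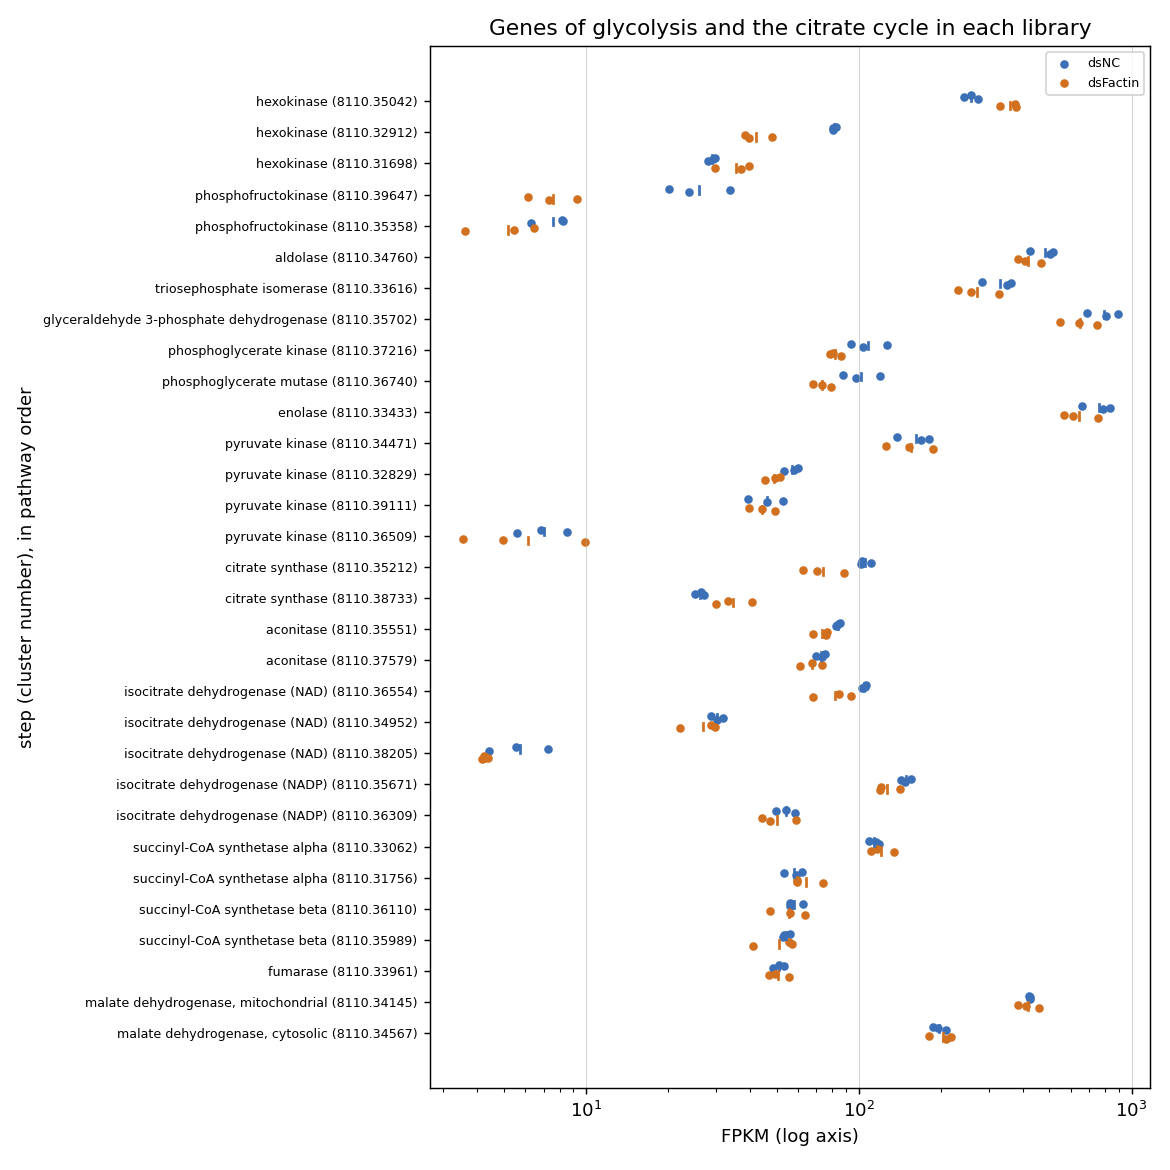
FPKM (log axis) of the 31 genes of glycolysis and the citrate cycle in each library, in pathway order from top to bottom, blue for dsNC and orange for dsFactin, with a vertical tick at each group mean (n = 3). The groups separate most widely for hexokinase Cluster-8110.32912 and phosphofructokinase Cluster-8110.39647, while malate dehydrogenase and fumarase overlap.

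Of the 16 genes grouped as citrate cycle by KEGG entry, 1 lay wholly above and 5 wholly below dsNC (6.25% and 31.2%, beside 5.98% and 21.5% of all tested genes). At an unadjusted p under 0.05, 1 was higher and 2 lower (6.25% and 12.5%, beside 4.53% and 14.8%), and 0 passed in limma or with voom. The group includes a cytoplasmic aconitase (Cluster-8110.37579), cytosolic malate dehydrogenase and NADP-linked isocitrate dehydrogenases (Cluster-8110.35671 and the cytoplasmic Cluster-8110.36309). Its counts, sum and median are therefore not those of the mitochondrial cycle alone. The 12 negative and 4 positive log2 differences, beside 38067 negative of all 53182 tested genes, became 3 negative and 13 positive after median-ratio rescaling. Their summed level was 1581, 1585 and 1595 FPKM in dsNC against 1416, 1540 and 1550 in dsFactin. The groups did not overlap, though the lowest control and the highest dsFactin library were close. The main citrate synthase (Cluster-8110.35212), which joins the acetyl group to oxaloacetate, was at 102, 111 and 102 FPKM in dsNC against 62.4, 70.3 and 88.3 in dsFactin (log2 -0.52 ± 0.15, adjusted p = 0.150, limma). A second citrate synthase (Cluster-8110.38733) separated the other way, at 26.3, 25.1 and 27.1 FPKM in dsNC against 33.2, 40.6 and 30.04 in dsFactin (log2 0.38 ± 0.14, adjusted p = 0.226). Both have a best hit named probable citrate synthase 2, and their groups did not overlap. The beta subunit of the NAD-linked isocitrate dehydrogenase (Cluster-8110.36554), a regulated step of the cycle, was at 107, 105 and 103 FPKM in dsNC against 84.3, 93.6 and 67.8 in dsFactin (log2 -0.37 ± 0.14, adjusted p = 0.239).

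Mitochondrial malate dehydrogenase (Cluster-8110.34145), which restores oxaloacetate and was the most abundant cycle gene, was at 421, 426 and 424 FPKM in dsNC against 385, 412 and 457 in dsFactin. The controls were nearly identical and the dsFactin libraries lay on both sides of them. Fumarase (Cluster-8110.33961) was at 50.9 ± 2.40 and 50.7 ± 4.54 FPKM, cytosolic malate dehydrogenase (Cluster-8110.34567) at 197 ± 10.6 and 203 ± 19.2 FPKM, and the main alpha subunit of succinyl-CoA synthetase (Cluster-8110.33062) at 114 ± 4.91 and 121 ± 12.4 FPKM (SD, n = 3, dsNC and dsFactin). The NADP-linked isocitrate dehydrogenase of mitochondria (Cluster-8110.35671) was at 149 ± 6.04 and 127 ± 12.3 FPKM and mitochondrial aconitase (Cluster-8110.35551) at 83.7 ± 1.42 and 73.3 ± 4.77 FPKM, both without overlap, and both turned positive after median-ratio rescaling. Both stayed negative with quantile normalization. The median log2 difference of the 16 genes was -0.10, beside -0.27 over all tested genes. After median-ratio rescaling it was 0.22, beside -0.09, and with quantile normalization -0.13, beside 0.01. Over 105 genes named as subunits of respiratory complexes, used as markers of mitochondria, the sum was 44380 ± 869 FPKM in dsNC against 37267 ± 1289 in dsFactin, where 56 had the lower and 49 the higher mean in dsFactin, and their part in the citrate cycle values was not tested.

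Another 6 enzymes share a word with these pathways and act elsewhere. The most abundant was D-3-phosphoglycerate dehydrogenase (Cluster-8110.34879), which draws a glycolytic intermediate into serine synthesis, at 554, 509 and 615 FPKM in dsNC against 632, 716 and 823 in dsFactin (log2 0.37 ± 0.15, adjusted p = 0.250, limma). The groups did not overlap, by a narrow margin. The NADP-dependent malic enzyme (Cluster-8110.38713), which turns malate into pyruvate, was at 37.7 ± 0.262 FPKM in dsNC against 30.1 ± 4.46 in dsFactin (SD, n = 3), also without overlap. Ketohexokinase, enolase-phosphatase E1, an inositol polyphosphate phosphatase and a trans-aconitate methyltransferase completed the 6. Of the 6, 0 passed in limma or with voom and 1 was higher at an unadjusted p under 0.05 (16.7%, beside 4.53% of all tested genes). Of these, enolase-phosphatase E1 (Cluster-8110.33904), of the methionine salvage pathway, was at 22.2 ± 1.21 and 26.5 ± 2.25 FPKM (SD, n = 3), with no overlap.

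Several steps were carried by more than 1 gene, and the balance within a step differed between groups. These pairs were chosen after their values were seen, so their ratios are descriptions without a test. The ratio of hexokinase Cluster-8110.32912 to Cluster-8110.35042 was 0.320, 0.331 and 0.293 in dsNC and 0.103, 0.146 and 0.105 in dsFactin. That of phosphofructokinase Cluster-8110.39647 to Cluster-8110.35358 was 2.48, 4.09 and 3.79 in dsNC and 0.952, 1.70 and 2.03 in dsFactin, and that of citrate synthase Cluster-8110.35212 to Cluster-8110.38733 was 3.89, 4.43 and 3.77 in dsNC and 1.88, 1.73 and 2.94 in dsFactin. A ratio within a library does not depend on how libraries are scaled, and in each of these 3 pairs the groups did not overlap. In pyruvate kinase (Cluster-8110.34471 to Cluster-8110.32829, 2.87 ± 0.492 and 3.22 ± 0.837) and aconitase (Cluster-8110.35551 to Cluster-8110.37579, 1.15 ± 0.0376 and 1.10 ± 0.161) they overlapped.

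The surrounding carbohydrate pathways were drawn from KEGG names and gave 53 tested genes, of which 0 passed in limma, 3 had higher and 12 lower values at an unadjusted p under 0.05 (5.66% and 22.6%, beside 4.53% and 14.8% of all tested genes), and 2 passed with voom, arginine kinase Cluster-8110.35103 and the phosphoglucose isomerase given above. Their median log2 difference was -0.17. Arginine kinase, which stores ATP energy as phosphoarginine in arthropod muscle and other tissues, was at 1444, 2133 and 2037 FPKM in dsNC against 701, 872 and 789 in dsFactin for its main gene (Cluster-8110.35103, log2 -1.23 ± 0.19, adjusted p = 0.0610, limma). A second arginine kinase (Cluster-8110.35494) was at 274 ± 32.3 and 336 ± 32.5 FPKM, and the ratio of the first to the second was 6.85 ± 1.36 in dsNC against 2.34 ± 0.0715 in dsFactin (SD, n = 3). Glycogen phosphorylase, which releases glucose units from stored glycogen, also had a pair of abundant genes. Cluster-8110.37397 was at 156, 242 and 199 FPKM in dsNC against 99.3, 124 and 144 in dsFactin (adjusted p = 0.163), while Cluster-8110.36531 was at 207 ± 11.1 and 209 ± 9.49 FPKM, and the sign of this second gene changed with quantile normalization.

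On the route from glucose 6-phosphate to glycogen, genes did not share a direction and 0 passed. The 2 described first were named for the smallest p upward. UTP-glucose-1-phosphate uridylyltransferase (Cluster-8110.33434), which activates glucose for glycogen, was at 80.9, 86.0 and 97.4 FPKM in dsNC against 123, 123 and 151 in dsFactin (log2 0.58 ± 0.14, adjusted p = 0.105, limma). The glycogen branching enzyme (Cluster-8110.36912) was at 46.8, 47.9 and 55.2 FPKM in dsNC against 66.9, 61.4 and 76.3 in dsFactin (adjusted p = 0.160). In both, the dsFactin libraries lay wholly above the controls. Glycogen synthase itself (Cluster-8110.35431) was at 20.3 ± 0.886 and 21.2 ± 2.05 FPKM and the main phosphoglucomutase (Cluster-8110.38714) at 32.9 ± 3.50 and 33.5 ± 4.35 FPKM, while other uridylyltransferase genes were at 21.5 ± 3.51 and 25.5 ± 10.4 FPKM (Cluster-8110.45104) and 3.74 ± 2.29 and 2.81 ± 1.36 FPKM (Cluster-8110.28062), all 4 with overlap (SD, n = 3, dsNC and dsFactin). Another pair of short uridylyltransferase genes (Cluster-12281.0 and Cluster-8110.51506, 345 and 321 bases) averaged 1.26 ± 0.225 and 3.43 ± 2.20 FPKM (SD, n = 3) over the control libraries, and each dsFactin library lists both at 0, where 3 fragments would equal 2.66 to 12.8 FPKM. They rest on 1 and on at most 3 recovered fragments per dsNC library and met the FPKM limit through dsNC only, which fixed their direction, and both are among the 12 lower genes.

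Genes at the entry to and branches from the citrate cycle lay on both sides of dsNC. Pyruvate carboxylase (Cluster-8110.35815), which makes oxaloacetate from pyruvate, was at 55.3, 55.0 and 58.9 FPKM in dsNC against 76.5, 62.3 and 70.2 in dsFactin (log2 0.30 ± 0.12, adjusted p = 0.250, limma), and the groups did not overlap. The E1 alpha subunit of pyruvate dehydrogenase (Cluster-8110.34325) was at 48.2 ± 0.592 and 53.3 ± 8.69 FPKM, 2-oxoglutarate dehydrogenase (Cluster-8110.32994) at 75.9 ± 6.28 and 64.0 ± 5.29 FPKM and the flavoprotein subunit of succinate dehydrogenase (Cluster-8110.33326) at 91.9 ± 5.09 and 80.8 ± 10.3 FPKM (SD, n = 3, dsNC and dsFactin). Transaldolase (Cluster-8110.33429), of the pentose phosphate pathway, was at 218 ± 2.16 and 185 ± 15 FPKM. Of these, 2-oxoglutarate dehydrogenase and transaldolase lay wholly below dsNC, as did component X of the pyruvate dehydrogenase complex (Cluster-8110.25711, 0.683 times its dsNC mean) and the regulatory subunits of its phosphatase (Cluster-8110.24182 and Cluster-8110.32012, 0.723 and 0.781 times), which were named after their values were seen. The 2-oxoglutarate dehydrogenase, succinate dehydrogenase and transaldolase genes turned positive after median-ratio rescaling.

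**Figure D4:**
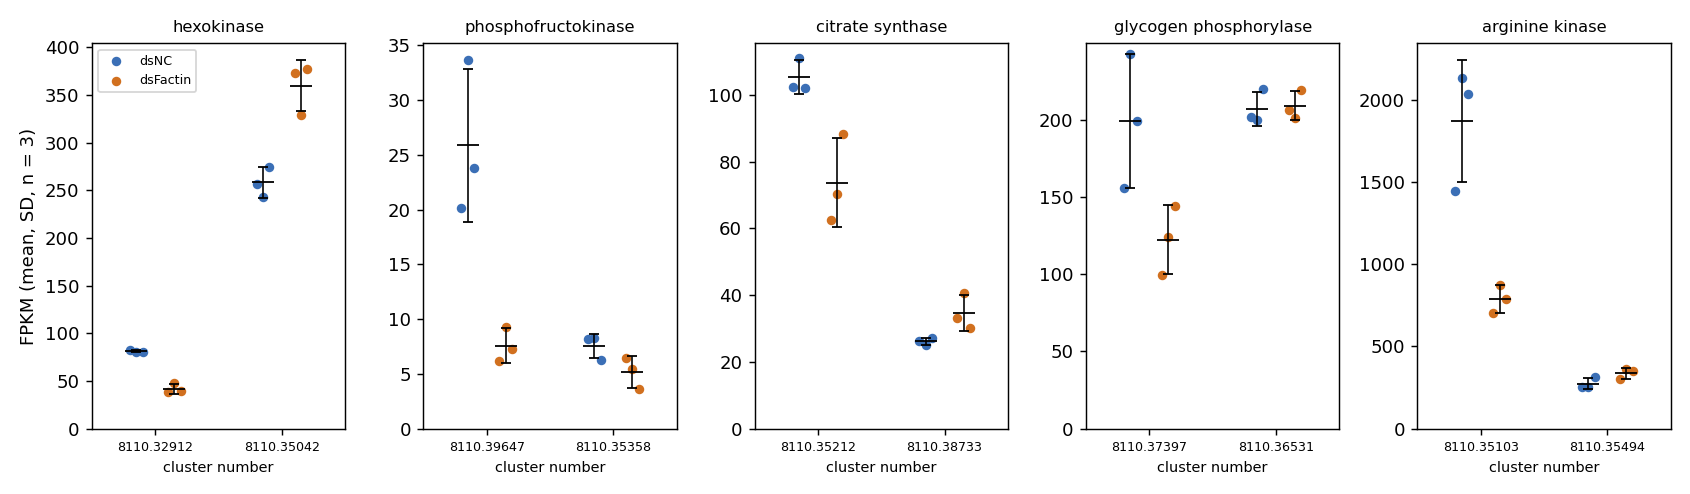
FPKM (linear axes from 0) in each library of gene pairs annotated to the same step, blue for dsNC and orange for dsFactin, with black bars for the mean and SD (n = 3). In hexokinase and citrate synthase the pair separates in opposite directions, and the glycogen phosphorylase Cluster-8110.36531 is at 207 ± 11.1 and 209 ± 9.49 FPKM.

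Most muscle markers also had lower means in dsFactin. Of the 79 markers, 0 rose and 3 fell, 46 lay wholly below dsNC and 1 wholly above, beside 0.419% passing lower, 21.5% wholly below and 5.98% wholly above among all tested genes, and their median log2 difference was -0.89. By marker name, the largest relative falls were in summed troponin and titin. Troponin was at 5635 ± 649 FPKM in dsNC against 2516 ± 282 in dsFactin, and titin at 182 ± 19.5 and 81.4 ± 10.5 FPKM (SD, n = 3). The smallest was in summed paramyosin, at 466 ± 34.1 and 350 ± 47.2 FPKM, and 5 of 19 myosin heavy chain genes had the higher mean in dsFactin. Over the 15 glycolysis genes the summed level was 3249 ± 340 FPKM in dsNC against 2837 ± 336 in dsFactin. The part of the muscle markers in the values of hexokinase Cluster-8110.32912, phosphofructokinase Cluster-8110.39647 and arginine kinase Cluster-8110.35103 was not tested. None of the defining muscle marker groups was at 0 in any library.

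The 66 genes left out for a Drosophila best hit stood apart from the 119. Summed, they were at 9.08, 50.5 and 242 FPKM in dsNC against 0.04, 0 and 0.06 in dsFactin. Over the whole table, genes with a Drosophila best hit held 0.0672%, 0.216% and 1.19% of FPKM in dsNC and 0.0219%, 0.0374% and 0.0343% in dsFactin. The 3 controls thus differed widely among themselves in these genes. The best hits of 118 of the 119 genes came from 13 spider species, led by Stegodyphus dumicola with 37, Uloborus diversus with 25 and Stegodyphus mimosarum with 24, and the names used here are those of the best hits or KEGG entries.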

How the data were processed

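Values were FPKM that the authors deposited as 1 table with 2 decimals for 6 libraries, 3 dsNC and 3 dsFactin, grouped by sample title. Per the labels' protocols, an RNeasy kit gave the RNA and a SMARTER mRNA kit the libraries. Not given in the sources used here are aligner, assembler and counter. A mouse build, mm10, is named in the submitters' processing notes, while the genes are numbered clusters without coordinates, so no positions or sequences are given. Gene lengths (bases) and best hits came from the same table.

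From these, 53182 genes that reached 0.5 FPKM in 3 or more libraries entered the test as log2(FPKM + 1), a scale that understates changes of genes near 1 FPKM, with limma 3.58.1 in R 4.3.3. The test was two-sided with an intensity trend, group as the only term and Benjamini-Hochberg adjustment over all tested genes, and the threshold was an adjusted p under 0.05. Depth came from the spacing of low FPKM values, 99.3 to 99.6% of which lay within 0.1 of a whole fragment number, and recovered fragments served voom as an alternative. Floors of 3 fragments cover counting error only. Tested on simulated data with the spreads of the 53182 genes for this comparison, the fit recovered 9% of 100 genes changed 2-fold and 73% of 100 changed 8-fold, with 3 false calls.

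The genes, the pathway and marker lists and the naming rule were chosen with earlier results of these data known, and no list was tested as a set. The rule named the most abundant gene of each enzyme step, the 6 most abundant carriers, every gene that passed and the 4 smallest p in each direction among carriers and among enzymes. Of the 53 other pathway genes it named the most abundant per pathway and the 3 smallest p in each direction. It gave 38 and 11 genes, and genes named beyond them, such as second genes of a step and further carriers, were chosen after their values were seen. Of the 53, 3 entered by word only (glycogen synthase kinase 3 beta, counted as 2 genes, and a lariat debranching enzyme), and 0 genes with a trehalase or trehalose 6-phosphate name met the limits. The remaining marker lists gave summed FPKM (SD, n = 3, dsNC and dsFactin) of 80709 ± 8500 and 49343 ± 5189 for 43 hemocyanins. For 35 vitellogenins the sums were 11611 ± 2190 and 19443 ± 5778. They were 29305 ± 2855 and 16605 ± 10068 for 138 cuticle proteins and 18749 ± 2079 and 21602 ± 3952 for 38 spidroins, both with overlap.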

Additional observations from a re-analysis of the deposited data

How the results depend on the processing

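Genes passing over all tested genes numbered 392 with a pseudocount of 0.1, 114 with 0.01, 117 without a filter, 781 at a mean of at least 5 FPKM, 115 after median-ratio rescaling, 243 with quantile normalization, 174 without an intensity trend, 702 with array weights, 1110 with voom and 33 to 1297 with 1 library left out, against 264. Of the 119 genes, 3 passed, and in the same order 4, 1, 0, 6, 0, 2, 0, 6 and 8 did, and 0 to 4 with 1 library left out, the highest without dsFactin replicate 2. Replicate numbers did not pair the libraries (correlations of same-numbered deviations 0.10, -0.11 and -0.15), and with the replicate number as a block 17 genes and 0 of the 119 passed. Of the 53 other pathway genes 1 passed with a pseudocount of 0.1, at a mean of at least 5 FPKM and with quantile normalization, 2 with voom, and 0 to 2 with 1 library left out.

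At an unadjusted p under 0.05, 13 of the 119 were higher and 14 lower. The higher count was 8 without a trend, 21 with quantile normalization and 29 after median-ratio rescaling, and 5 to 13 with 1 library left out. The lower count was 7 at a mean of at least 5 FPKM, 6 after median-ratio rescaling and 23 with voom, and 7 to 17 with 1 library left out. All-gene shares at this level are not given here for any alternative setting. Whether the counts of the 119 moved apart from those of all tested genes was therefore not tested. The all-gene median log2 difference itself went from -0.27 to 0.01 under quantile normalization and to -0.09 under median ratios. Median-ratio rescaling moved the median log2 difference to 0.57 in sugar carriers, 0.30 in organic ion carriers, 0.15 in other carriers, 0.037 in glycolysis and 0.22 in the citrate cycle. Quantile normalization gave 0.26 in organic ion carriers and 0.17 in other carriers, and a mean of at least 5 FPKM gave 0.19 and 0.06. In other carriers it was -0.14 and -0.13 with pseudocounts of 0.01 and 0.1 and -0.11 with voom. With 1 library left out the medians ran from 0.15 to 0.38 in sugar carriers, -0.094 to 0.14 in organic ion carriers, -0.088 to 0.025 in other carriers, -0.36 to -0.18 in glycolysis and -0.16 to -0.076 in the citrate cycle.

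Some small differences of named genes changed sign. After median-ratio rescaling these became 0.053 in ketohexokinase (Cluster-8110.15020), 0.12 in D-lactate dehydrogenase, 0.079 in 2-oxoglutarate dehydrogenase and in transaldolase, 0.13 in succinate dehydrogenase, aldolase and aconitase, 0.082 in enolase, 0.22 in the inositol polyphosphate phosphatase (Cluster-8110.33494), 0.033 in triosephosphate isomerase, 0.31 in fumarase, 0.30 in mitochondrial malate dehydrogenase, 0.25 in pyruvate kinase Cluster-8110.34471 and in succinyl-CoA synthetase beta (Cluster-8110.36110), 0.10 in NADP-linked isocitrate dehydrogenase and 0.019 in glyceraldehyde 3-phosphate dehydrogenase. With quantile normalization they became 0.13 in ketohexokinase, 0.22 in D-lactate dehydrogenase, -0.0011 in succinyl-CoA synthetase alpha, -0.06 in cytosolic malate dehydrogenase and -0.089 in glycogen phosphorylase Cluster-8110.36531, and with voom 2.6e-05 in fumarase. With 1 library left out the log2 difference ran from -0.37 to 0.061 in ketohexokinase, -0.19 to 0.039 in D-lactate dehydrogenase, -0.0072 to 0.13 in succinyl-CoA synthetase alpha, -0.21 to 0.0041 in the inositol polyphosphate phosphatase, -0.077 to 0.044 in fumarase, -0.088 to 0.035 in mitochondrial and -0.017 to 0.12 in cytosolic malate dehydrogenase, -0.21 to 0.067 in the pyruvate kinase, -0.17 to 0.04 in succinyl-CoA synthetase beta and -0.022 to 0.057 in the glycogen phosphorylase. The cause of these changes was not tested. Depth limits genes near 1 FPKM, where 3 fragments equal 0.233 to 0.277 FPKM at 1000 bases.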
